A study of Mus musculus with 16 samples.

Results

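The experiment compared cerebral cortex of male Neil1-/- mice after whole-body gamma irradiation with cortex of sham-exposed Neil1-/- mice. The samples were chosen by their titles, which name the knockout genotype and either an irradiated or a sham exposure, and they are 8 of the 16 arrays of the series, 4 irradiated and 4 sham. Each array held RNA of 1 mouse. The mice were on a C57BL/6 background, and the labels give an age of 28 to 42 weeks. The irradiated group received 6 Gy at 0.74 Gy/min, the sham group 0 Gy, and cortex was taken after 20 h. BrdU, a thymidine analogue that dividing cells build into their DNA, was injected at 100 mg/kg ahead of the exposure with a second dose 2 h later, and the protocols name no group without it. The other 8 arrays were wild-type littermates, 4 irradiated and 4 sham, and served here for comparison. The irradiated and the sham group both carried the Neil1 deletion, so the comparison shows the response to radiation in animals that lack the gene and not the effect of lacking it.

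NEIL1 is a DNA glycosylase that cuts oxidised bases out of DNA as the opening step of base excision repair. Gamma rays oxidise bases and break strands, and broken strands activate the kinase ATM and through it the transcription factor p53, which switches on genes of cell cycle arrest, DNA repair, metabolism and cell death. Adult cortex is mostly non-dividing neurons and glia. Its dividing cells are chiefly oligodendrocyte precursors, and microglia are its resident immune cells.

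Few genes passed the threshold between irradiated and sham knockout cortex. Of 17436 genes tested, 21 (0.12%) passed an adjusted p under 0.05 in limma's moderated test with Benjamini-Hochberg adjustment, 13 of them higher (0.0746%) and 8 lower (0.0459%) after irradiation. The 13 that rose were Eda2r, Trp53inp1, Gdf15, Ephx1, Mgmt, Dcxr, Tnfrsf10b, Cox6b2, Cdkn1a, Rps27l, Alox5, Gtse1 and Epha2. All 13 stood in the 3 lists of p53 targets used here, which were compiled with earlier results of these data known, so the membership is no independent evidence. The 8 that fell were Cenpf and Pbk of dividing cells, Neu4 and Gpr17 of the oligodendrocyte lineage, P2ry12 of microglia, the chemokine gene Ccl24, the platelet gene Gp9 and Tmem45a, a membrane protein gene placed with mural and fibroblast genes. In each of the 21 genes the 4 irradiated arrays lay wholly above or wholly below the 4 sham arrays, and the fitted change was at least 1.5-fold. For Pbk the fitted change rests on irradiated readings at background, and the fall is only bounded at 1.12-fold or more. Groups did not overlap for 382 of all genes tested (2.19%), 1.16% with irradiated arrays higher and 1.03% with irradiated arrays lower. The balance of rises and falls moved with the background correction and the scaling: 18 rose and 2 (P2ry12 and Gpr17) fell with normexp correction, whose offset draws differences of dim probes toward 0, 9 rose and 2 fell with the array median in place of the 75th percentile, and 12 rose and 3 fell in the authors' deposited scores. Across all genes 49.8% of changes lay above 0 and 50.2% below, and the median change was -0.001 on the log2 scale. An unadjusted p under 0.05 was reached by 808 genes (4.63%).

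**Figure D1:**
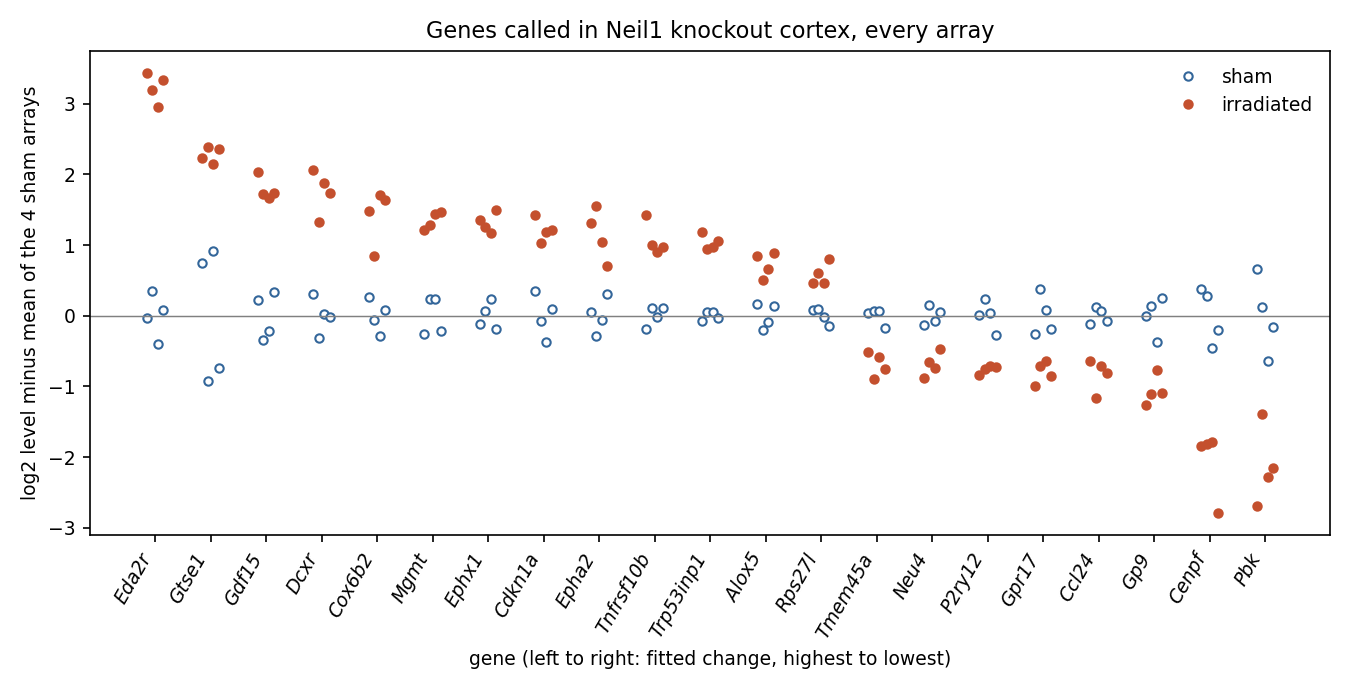
Log2 level of the 21 called genes (horizontal axis, ordered by fitted change) in each of the 8 knockout arrays, as the difference from the mean of the 4 sham arrays (vertical axis). Open circles are sham arrays and filled circles irradiated arrays, with no error bars. The filled circles of every gene lie on 1 side of all open circles, from Eda2r (fitted change 3.24) to Pbk (-2.13). No sham array was well above background for Eda2r and no irradiated array for Pbk. Their folds are bounds, at least 4.58-fold higher and at least 1.12-fold lower.

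Leaving out each of the 8 knockout arrays in turn, 10 genes kept their call every time (Eda2r, Trp53inp1, Gdf15, Ephx1, Mgmt, Dcxr, Tnfrsf10b, Cox6b2, Cenpf and P2ry12) and 11 lost it at least once. The number of called genes was 15, 11, 13 and 13 without sham array 1, 2, 3 or 4, and 15, 16, 22 and 14 without irradiated array 1, 2, 3 or 4. In a fit of the 8 knockout arrays alone, 6 genes were called: Eda2r, Trp53inp1, Gdf15, Ephx1, Mgmt and Dcxr. The 2 dimmest irradiated arrays were 3 and 4, and 7 genes were called without them: Eda2r, Trp53inp1, Gdf15, Ephx1, Mgmt, Tnfrsf10b and Cenpf.

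The arrays differed in brightness in a way that ran with the exposure. The 75th percentile of processed intensity was 2240, 1837, 1513 and 1522 in sham arrays 1 to 4 and 1766, 1275, 1215 and 1075 in irradiated arrays 1 to 4. The share of spots well above background was 67.8%, 67.9%, 66.1% and 68.5% in the sham arrays and 68.1%, 68.7%, 62.4% and 62.7% in the irradiated arrays. The irradiated arrays were dimmer on average (1778 ± 343 against 1333 ± 301, SD, n = 4 each, exact permutation test on log2 values, two-sided p = 0.0857, where the smallest possible with 4 against 4 is 0.0286). Each level given here is a log2 signal minus the log2 of that percentile, and the part of the brightness difference in the changes below was not tested beyond the alternatives named. The knockout arrays shared 1 slide and 1 scan, with sham in row 1 of the slide and irradiated in row 2, so row and exposure cannot be told apart. The array number was also the slide column in both rows, and in each column the irradiated array was dimmer than the sham array. The permutation test did not take the columns into account. Pairs of the 8 arrays correlated with r of 0.976 to 0.991 over all genes, a description in which all share the slide.

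Neuron genes were bright on all 8 arrays, while striatal genes varied from mouse to mouse. The excitatory neuron list had a mean level of 2.05 to 2.34 on sham arrays and 1.96 to 2.21 on irradiated arrays. Slc17a7, the vesicular glutamate transporter of cortical excitatory neurons, stood at 2.56 to 3.60 in sham and 2.83 to 3.75 in irradiated arrays, and Gad1, which makes GABA, at 3.86 to 4.55 and 4.05 to 4.32. Striatal neuron genes, which mark tissue below the cortex, had a mean level of 2.01, -0.02, 1.88 and -0.41 in sham arrays 1 to 4 and 1.16, 1.61, 0.53 and -0.32 in irradiated arrays 1 to 4. Their level therefore differed several-fold between mice within each group, and the groups overlapped. In bulk tissue, fewer cells of a type and less RNA per cell cannot be told apart, and this holds for each cell type gene below. The p-values of limma rest on a spread pooled over the mice of all 4 groups, wild type included, and moderated across genes. They do not cover the slide row, which ran with the exposure.

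**Figure D2:**
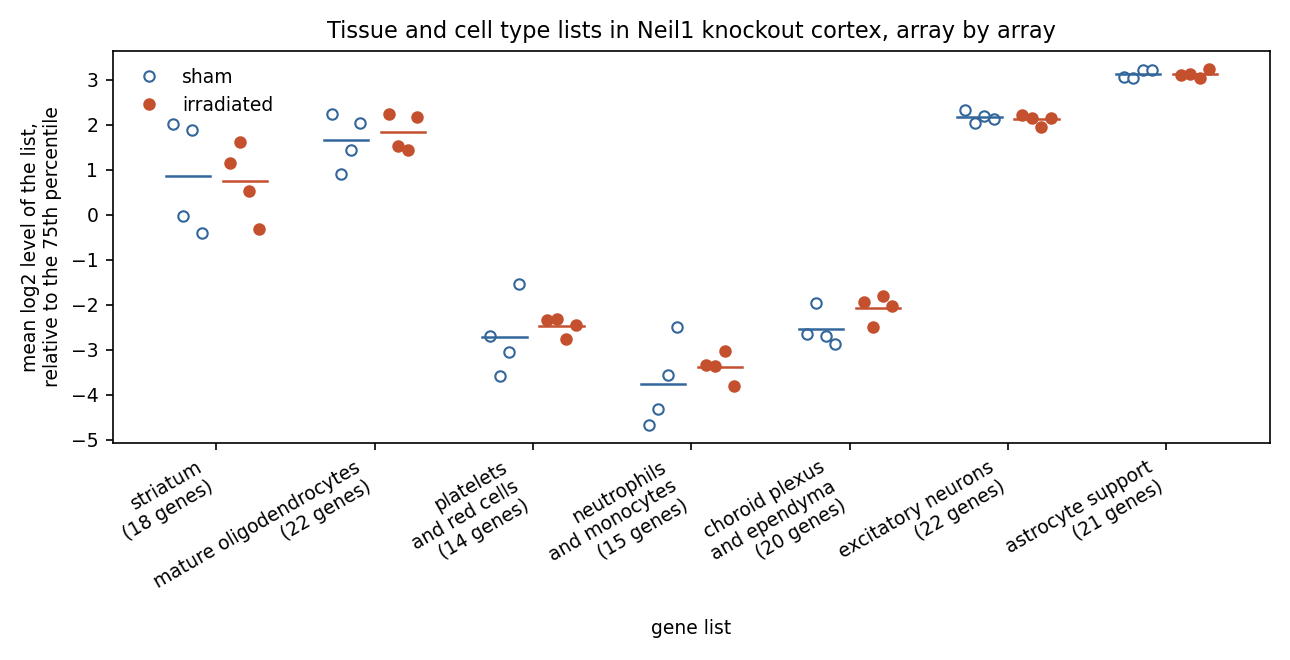
Mean log2 level relative to the array's 75th percentile (vertical axis) of 7 tissue and cell type lists (horizontal axis, with the number of genes tested) in each knockout array. Points are single arrays and lines the mean of the 4; striatal genes spread from -0.41 to 2.01 among sham arrays, while astrocyte support genes stay between 3.04 and 3.25 on all 8 arrays.

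Neil1 itself overlapped between the groups. Its probe read -2.17, -2.47, -2.60 and -2.27 in sham arrays 1 to 4 and -2.19, -2.56, -2.15 and -2.55 in irradiated arrays. The difference was 0.02 (exact permutation test, two-sided p = 0.83), with a sign that turned under other scalings. The same probe was dimmer on all 8 wild-type arrays, between -4.32 and -3.30. The deleted part of the gene and the place of the probe in the transcript are not known from the labels, so the probe does not check the labels, and the genotype rests on them.

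Genes that stop the cell cycle or feed back on p53 included Trp53inp1 and Cdkn1a. Of 20 such genes tested, 4 rose (0.0746% of all genes) and none fell. Of the 20 changes 15 lay above 0, and the median change was 0.15, against -0.001 over all genes (0.08 to 0.19 over the alternatives). In 8 of the 20 the groups did not overlap, all with irradiated arrays higher (1.16% of all genes). The mean level of the list was 0.37 to 0.50 on sham arrays and 0.69 to 0.84 on irradiated arrays.

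Trp53inp1, a p53-induced protein of the nuclear stress response and autophagy, gave the tightest change. It read -1.04, -0.91, -0.90 and -0.99 in sham arrays 1 to 4 and 0.23, -0.02, 0.01 and 0.10 in irradiated arrays. The groups lay far apart relative to their spread, and the change was 1.04 ± 0.09 (SE), or 2.05-fold (limma, adjusted p = 9.7e-05). A second, dimmer probe of the gene changed by 1.11.

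Cdkn1a encodes p21, the cyclin-dependent kinase inhibitor through which p53 holds cells before DNA replication. Its brighter probe read -0.29, -0.72, -1.02 and -0.54 in sham arrays and 0.78, 0.39, 0.54 and 0.57 in irradiated arrays, a rise of 1.21 ± 0.19, or 2.32-fold (limma, adjusted p = 0.0223). Sham array 1 was the highest of its group and still below every irradiated array. The call was lost without sham array 2, 3 or 4 or irradiated array 1 or 4, and with the array median. A dimmer probe, designed to another transcript of the gene (NM_001111099), had no reading well above background in the sham group and had one on all 4 irradiated arrays. It read -9.0, -8.52, -7.83 and -6.92 in sham and -3.95, -4.62, -3.76 and -4.21 after irradiation, at least 6.07-fold higher (limma over all probes, adjusted p = 0.00267). This bound sets the sham arrays at the dimmest signal that any probe well above background had there. The transcript read by this probe was thus near or below the detection limit in sham cortex, while the brighter probe was well above it on all 8 arrays.

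The RefSeq promoter table (GRCm38.p6) holds 2 start sites for Cdkn1a, 2790 bases apart, and does not say which transcript starts at which. The 250 bases before each start were searched on both strands for the p53 decamer, the 10-base unit of which a p53 response element holds a pair. The window of the upstream start held 2 decamers and that of the downstream start 0. The matching stretch of Cdkn1a at chr17:29090888-29090977 (plus strand) is printed with that of Rps27l at chr9:66946266-66946355 (plus strand), since these are the risen genes whose windows held the decamer. Capitals mark it.
Cdkn1a: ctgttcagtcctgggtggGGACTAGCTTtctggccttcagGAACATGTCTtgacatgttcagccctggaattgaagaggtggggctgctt
Rps27l: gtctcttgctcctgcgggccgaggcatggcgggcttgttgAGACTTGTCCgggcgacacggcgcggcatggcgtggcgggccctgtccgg
The decamer occurred in 7.13% of all 32851 promoter windows. Among the genes tested that have a window it was found in 7.63%. It was found in 8 of 17 arrest and feedback genes, 2 of 10 death genes, 4 of 22 enzymes and effectors, 2 of 11 risen genes and 1 of 5 fallen genes. It was also found in 7 of 35 interferon genes and 4 of 36 mitosis genes. A match is a description of the letters and says nothing of binding.

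Rps27l encodes a ribosomal protein paralogue that p53 induces. Its brighter probe read 1.76, 1.77, 1.66 and 1.53 in sham arrays and 2.14, 2.29, 2.15 and 2.49 in irradiated arrays, a rise of 0.59 ± 0.10, or 1.5-fold (limma, adjusted p = 0.0351). The highest sham array was 0.37 below the lowest irradiated array. The call was lost without any 1 of the 4 sham arrays or irradiated array 2 or 4, and with the array median. Its other probe changed by 0.74 ± 0.09 and was also called among probes (limma, adjusted p = 0.00429).

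Gtse1, a protein of dividing cells that binds p53 and p21, was well above background on 1 sham array and on all 4 irradiated arrays. It read -6.78, -8.46, -6.62 and -8.27 in sham and -5.30, -5.14, -5.38 and -5.17 after irradiation. The fitted change of 2.29 ± 0.41 rests on sham readings near background (limma, adjusted p = 0.0486), and the call was lost without sham array 2 or 4 or any 1 irradiated array, and with quantile normalization, the array median and the deposited scores. With normexp correction the change was 0.75. Aen, a p53-induced nuclease, stood just outside the threshold with 2.25 to 2.75 in sham and 3.05 to 3.54 in irradiated arrays (difference 0.74 ± 0.14, limma, adjusted p = 0.0872). Its other kept probes stood at 0.61 and 0.69. Phlda3, which restrains AKT signalling, had a difference of 0.76 ± 0.20, and Ccng1, cyclin G1, of 0.55 ± 0.23. Neither passed the test, although their groups did not overlap. Mdm2, the ubiquitin ligase that degrades p53, read 2.64 to 2.91 in sham and 2.65 to 3.15 after irradiation, a difference of 0.14 ± 0.11 with overlapping groups. Its dimmer probe stood at 0.45 ± 0.18, also with overlapping groups and without passing (limma over all probes, adjusted p = 0.732).

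Among 14 p53-induced death receptor and apoptosis genes tested, 2 rose (0.0746% of all genes) and none fell, with 11 of 14 above 0. The median change was 0.12, and it was 0.02 without sham array 1, 0.06 without irradiated array 4 and 0.25 with normexp correction. Eda2r, the receptor for ectodysplasin A2 in the tumour necrosis factor receptor family, had the lowest p of all genes. It read -7.81, -7.43, -8.18 and -7.69 in sham arrays and -4.34, -4.58, -4.82 and -4.44 in irradiated arrays. No sham array and every irradiated array was well above background, so the rise is a bound of at least 4.58-fold on this scale (limma, adjusted p = 2.4e-05). With normexp correction, which adds an offset, the ratio was 2.31-fold and still passed. Tnfrsf10b, the death receptor for TRAIL, read -4.41, -4.11, -4.24 and -4.11 in sham and -2.79, -3.22, -3.31 and -3.25 after irradiation. Irradiated array 1 was the highest and sham array 1 the lowest, and the rise was 1.08 ± 0.13, or 2.11-fold (limma, adjusted p = 0.00177). Fas, the receptor for Fas ligand, had a difference of 0.68 ± 0.25 with overlapping groups and did not pass. The lowest difference in the list was -0.28.

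Enzymes and secreted effectors formed the largest group of risen genes. Of 28 tested, 7 rose (0.0746% of all genes) and none fell, and 21 lay above 0. The median change was 0.12, and it was 0.25 without irradiated array 3, 0.21 without sham array 4 and 0.05 with the array median. The mean level of the list was -0.09 to -0.03 on sham arrays and 0.32 to 0.44 on irradiated arrays.

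Gdf15, a stress-induced cytokine of the TGF-beta family, read -5.99, -6.55, -6.43 and -5.88 in sham arrays 1 to 4. It read -4.18, -4.49, -4.55 and -4.47 in irradiated arrays, a rise of 1.79 ± 0.17, or 3.46-fold (limma, adjusted p = 0.000193), and 1.94-fold with normexp correction. Ephx1, the microsomal epoxide hydrolase, was a bright gene and read 2.22, 2.40, 2.58 and 2.15 in sham and 3.69, 3.60, 3.51 and 3.84 after irradiation. Its rise was 1.32 ± 0.13, or 2.50-fold (limma, adjusted p = 0.000193). The gap between the nearest arrays of the groups was wider than the range within either group in both genes.

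Mgmt removes alkyl groups from guanine in DNA in a single step. It read -2.71, -2.22, -2.21 and -2.67 in sham and -1.24, -1.17, -1.01 and -0.99 after irradiation, a rise of 1.35 ± 0.14, or 2.55-fold (limma, adjusted p = 0.000459). The irradiated arrays were closer to each other than the sham arrays, of which 1 and 4 were low. Dcxr, a carbonyl and xylulose reductase, read -1.16, -1.78, -1.45 and -1.49 in sham and 0.59, -0.15, 0.41 and 0.27 after irradiation. Its rise was 1.75 ± 0.20, or 3.36-fold (limma, adjusted p = 0.00103), and without irradiated arrays 3 and 4 the call was lost.

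Cox6b2, the testis isoform of a subunit of respiratory complex IV, read -1.70, -2.03, -2.25 and -1.88 in sham and -0.48, -1.12, -0.26 and -0.33 after irradiation. It rose by 1.42 ± 0.19, or 2.67-fold (limma, adjusted p = 0.00525), with irradiated array 2 lowest of its group. Of 34 other respiratory chain genes tested none was called. The median change was 0.03 (it turned to -0.03 with the array median and to -0.002 with quantile normalization). Of the 34, 2 had an unadjusted p under 0.05 in the higher direction (2.49% of all genes) and 1 in the lower (2.14%).

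Alox5, the lipoxygenase that begins leukotriene synthesis, read -3.47, -3.84, -3.72 and -3.50 in sham and -2.79, -3.13, -2.97 and -2.75 after irradiation. The rise of 0.72 ± 0.13, or 1.65-fold, was close to the threshold (limma, adjusted p = 0.0486) and was lost without any 1 array except irradiated array 2, and with quantile normalization, the array median and the deposited scores. Epha2, an ephrin receptor kinase, read -3.57, -3.91, -3.68 and -3.31 in sham and -2.30, -2.06, -2.58 and -2.92 after irradiation, a rise of 1.15 ± 0.21, or 2.22-fold (limma, adjusted p = 0.0486). Its call was lost without any 1 array except irradiated array 4.

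Further genes came close to the threshold. 9030619P08Rik had a difference of 0.83 ± 0.15 (limma, adjusted p = 0.0504), and P2ry2, a nucleotide receptor, of 0.74 ± 0.14. Avil, which encodes the actin-binding advillin, read -5.57 to -4.92 in sham and -4.32 to -3.19 after irradiation, a difference of 1.63 ± 0.31 that did not pass (limma, adjusted p = 0.0807). Mapkapk3, a stress kinase, had a difference of 0.60 ± 0.12. In each of these the irradiated arrays lay above all sham arrays.

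At the level of probes, 18 of 39589 were called (0.0455%), 14 higher (0.0354%) and 4 lower (0.0101%), and 2 of them have no gene name here. The probe for transcript ENSMUST00000125242 rose by 1.82 ± 0.21 (limma over all probes, adjusted p = 0.00267) and that for ENSMUST00000106148 by 1.64 ± 0.22 (limma over all probes, adjusted p = 0.0103). Their readings did not overlap between groups. Duoxa1, a maturation factor of the dual oxidases, had 1 called probe, at -5.90 to -5.43 on sham arrays and without a reading well above background after irradiation. It was at least 1.52-fold lower there (limma over all probes, adjusted p = 0.0452), while the gene's other probe overlapped between groups.

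**Figure D3:**
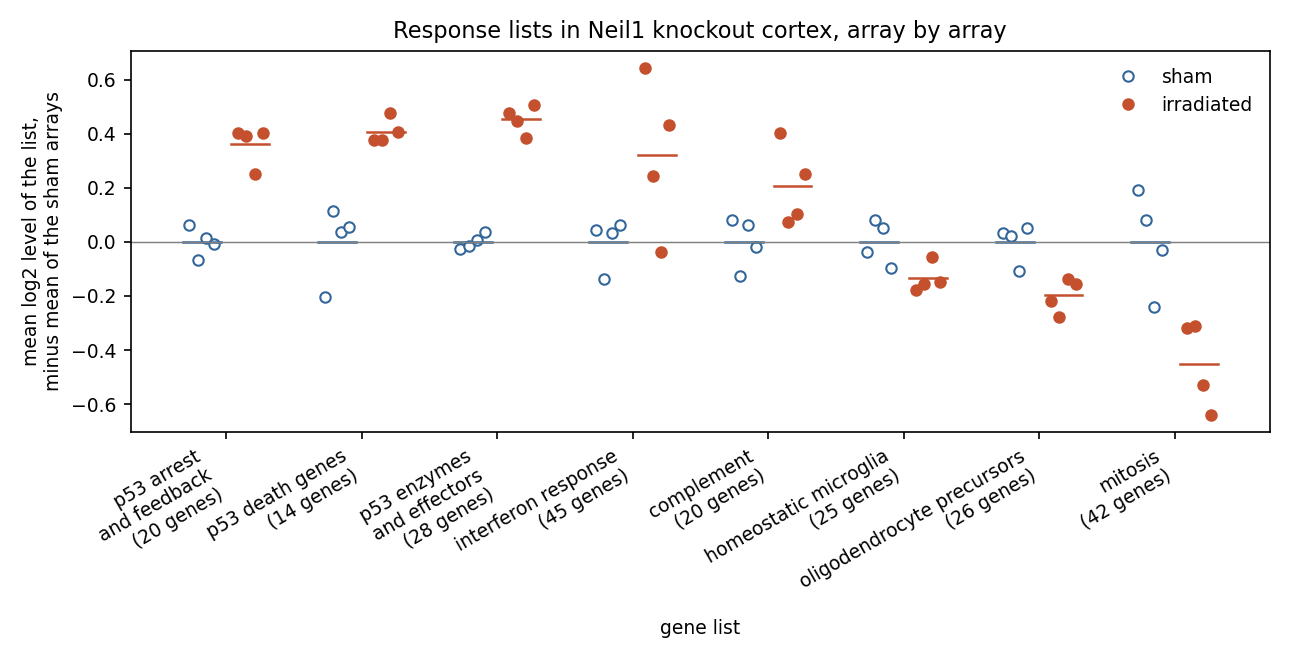
Mean log2 level of 8 gene lists (horizontal axis, with the number of genes tested) in each knockout array, as the difference from the mean of the 4 sham arrays (vertical axis). Points are single arrays and lines the mean of the 4; the 3 p53 lists, the precursor list and the mitosis list separate the groups, while irradiated array 3 lies among the sham arrays in the interferon list.

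Genes of dividing cells mostly lay below 0. Of 42 mitosis genes tested, 2 fell (0.0459% of all genes) and none rose, and 34 of the changes lay below 0. The median change was -0.28, although it was 0.02 with normexp background correction and -0.17 without irradiated array 3. Most of these genes were dim in adult cortex, with a mean level of -4.32 to -3.89 on sham arrays and -4.72 to -4.39 on irradiated arrays.

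Cenpf, a kinetochore protein of late cell cycle, read -4.83, -4.93, -5.66 and -5.40 in sham and -7.04, -7.02, -6.99 and -8.00 in irradiated arrays. All 4 sham arrays and no irradiated array were well above background, which makes the fall a bound of at least 2.14-fold (limma, adjusted p = 0.00203). A dimmer second probe pointed the same way at -0.48 ± 0.31 without passing. Pbk, a mitotic kinase, was well above background on 3 sham arrays and on no irradiated array, with -5.47, -6.02, -6.77 and -6.29 in sham and -8.83, -7.52, -8.42 and -8.29 after irradiation. Its bound was at least 1.12-fold lower (limma, adjusted p = 0.0108), and the call was lost without sham array 2. With normexp correction the differences of Cenpf and Pbk shrank to -0.13 and -0.08 and neither was called.

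Ccnb1, the cyclin that drives entry into mitosis, was well above background on all sham arrays and on no irradiated array, at least 1.63-fold lower without passing (limma, adjusted p = 0.211), and its difference was -0.08 with normexp correction. Aurkb, the kinase of the chromosomal passenger complex, was well above background on 2 sham arrays and on no irradiated array, and Top2a, the topoisomerase of dividing cells, on 4 sham arrays and 1 irradiated array. With normexp correction Aurkb stood at 0.16 and Top2a at -0.03. Top2a overlapped between groups, and neither gene passed (limma, adjusted p = 0.298 for Aurkb and 0.999 for Top2a). Spc25, a kinetochore gene, went the other way: it read -3.43 to -2.34 in sham and -2.19 to -2.02 after irradiation, a difference of 0.89 ± 0.18 (limma, adjusted p = 0.128), with its other probe at 1.0. None of 34 DNA replication genes was called, and none reached an unadjusted p under 0.05, with a median change of -0.01 that turned to 0.07 with normexp correction.

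The promoter of Cenpf is printed as an example of the mitotic genes. The stretch at chr1:189688111-189688200 (minus strand, GRCm38.p6) carries the CCAAT box, in capitals, by which the factor NF-Y binds promoters.
Cenpf: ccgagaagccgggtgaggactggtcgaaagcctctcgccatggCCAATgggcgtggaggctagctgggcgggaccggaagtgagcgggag
CCAAT was found on either strand in the 250 bases before the start in 26 of 36 mitosis genes with a window. It was found in 39.3% of the genes tested that have a window and in 33.8% of all windows. It was also found in 7 of 11 risen genes, 3 of 5 fallen genes and 11 of 17 arrest and feedback genes. The cell cycle homology region, searched as TTTGAA, was found in 11 of the 36, in 13.8% of the genes tested and in 16% of all windows. It was found in 2 of 11 risen genes and 0 of 5 fallen genes.

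Most genes of oligodendrocyte precursors lay below 0. Of 26 genes of precursors and committed precursors tested, 2 fell (0.0459% of all genes) and none rose. Below 0 lay 22 of them, and the median change was -0.18. The mean level of the list was -0.26 to -0.10 on sham and -0.43 to -0.29 on irradiated arrays. Gpr17, a receptor of committed precursors, read 2.01, 2.65, 2.35 and 2.08 in sham and 1.28, 1.56, 1.64 and 1.42 after irradiation. Every irradiated array was below every sham array, and the fall was 0.80 ± 0.14 on the log2 scale, or 1.74-fold (limma, adjusted p = 0.0486). Neu4, a sialidase of the same stage, read -4.11, -3.82, -4.05 and -3.92 in sham and -4.86, -4.63, -4.72 and -4.44 after irradiation, a 1.61-fold fall (limma, adjusted p = 0.0486), while its dimmer probe stood at -0.17 ± 0.18. The call of Gpr17 was lost without sham array 2, 3 or 4 or any 1 irradiated array, and with the array median and the deposited scores. That of Neu4 was lost without any 1 array except irradiated array 4, and with quantile normalization, the array median, the mean of its probes and the deposited scores. With normexp correction Neu4 stood at -0.20 and was not called. Ptprz1, a receptor phosphatase, and Pdgfra, the growth factor receptor of precursors, stood at -0.46 ± 0.21 and -0.43 ± 0.20 without passing.

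Of 22 genes of mature oligodendrocytes, none was called. Their median change was 0.16 with 19 above 0. It lay between -0.10 and 0.46 over the alternatives, moved without any 1 of the 8 arrays, and was -0.10 without sham array 2, which had the lowest level of the list (0.91, against 1.45 to 2.24 on the other sham arrays). Mbp, myelin basic protein, read 4.18, 2.24, 3.03 and 3.82 in sham and 4.36, 3.28, 3.31 and 4.22 after irradiation, and Mog, a myelin surface protein, overlapped likewise. Myrf, the transcription factor of myelin genes, stood at 0.83 ± 0.28 (limma, adjusted p = 0.777). In wild type all 22 of these genes lay below 0, with a median of -0.32. No gene of the list differed between genotypes at an adjusted p under 0.05.

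Microglial genes of the resting state included 1 fall. Of 25 tested, 1 fell (0.0459% of all genes) and none rose. Below 0 lay 16 and above it 9, and the median change was -0.22. The changes ran from -0.80 to 0.66, and the genes named here are from the lower side. P2ry12, the nucleotide receptor by which resting microglia sense injury, read -0.06, 0.16, -0.04 and -0.35 in sham and -0.91, -0.82, -0.78 and -0.80 after irradiation. The irradiated arrays lay within 0.13 of each other and below all sham arrays, a fall of 0.76 ± 0.10, or 1.69-fold (limma, adjusted p = 0.00525), which was not called with the array median scaling. Slc2a5, the fructose transporter of microglia, stood at -0.80 ± 0.22, and Csf1r, the receptor on which microglia depend for survival, at -0.44 ± 0.14, while a second kept Csf1r probe stood at 0.25. The groups did not overlap in Slc2a5 or in the brighter Csf1r probe, but the adjusted p was over 0.05 (limma, adjusted p = 0.454 and 0.670). The brighter probe of Cx3cr1, the fractalkine receptor, and Tmem119 overlapped between groups, at -0.22 ± 0.13 and -0.26 ± 0.19. A second kept Cx3cr1 probe stood at -0.49 ± 0.15 with groups that did not overlap, without passing (limma over all probes, adjusted p = 0.573). Of 26 lysosomal and phagocytosis genes none was called. Ctss, cathepsin S, stood at -0.47 ± 0.12 with groups that did not overlap, and Cst7, a cystatin of activated microglia, at 0.67 ± 0.24.

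Lymphocyte genes were dim, and the members with the smallest p were lower. None of 16 was called, and 10 changes lay above 0 and 6 below. The median change was 0.16, with a sign that turned without sham array 2 (-0.03) or without the 2 dimmest irradiated arrays (-0.06). Il7r, the interleukin 7 receptor, read -4.80, -4.26, -4.78 and -4.90 in sham and -5.79, -5.26, -5.71 and -5.79 after irradiation, a difference of -0.96 ± 0.18 (limma, adjusted p = 0.0729). Cd79b, which signals for the B cell receptor, stood at -0.77 ± 0.15 (limma, adjusted p = 0.0811), and Tnfrsf17, the plasma cell receptor BCMA, at -1.05 ± 0.19 (limma, adjusted p = 0.0531), although it turned to 0.04 with normexp correction, under which Il7r stood at -0.11 and Cd79b at -0.08. In these 3 genes every irradiated array was below every sham array. Tnfrsf17 was well above background on 2 irradiated arrays.

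Blood content varied from mouse to mouse. Hbb-b1, a beta globin of red cells with near-identical paralogues that 1 probe may not tell apart, read -4.55, -6.62, -4.19 and -0.79 in sham and -1.74, -1.18, -3.46 and -1.77 in irradiated arrays. Sham array 4 also had the highest mean level of the platelet and red cell list (-1.55, against -3.59 to -2.69 on the other sham arrays) and of the neutrophil and monocyte list (-2.50, against -4.68 to -3.57). Gp9, a subunit of the platelet receptor for von Willebrand factor, nonetheless separated the groups: it read -3.93, -3.79, -4.30 and -3.68 in sham and -5.18, -5.03, -4.69 and -5.02 after irradiation. The fall of 1.06 ± 0.19, or 2.08-fold, passed (limma, adjusted p = 0.0486) but was lost without sham array 1, 2 or 4 or irradiated array 1, 2 or 4, and with quantile normalization, the array median, array weights and the deposited scores. With normexp correction Gp9 stood at -0.40 and was not called. It was the 1 gene called of 14 platelet and red cell genes tested (0.12% of all genes were called). The median change of the list was 0.14, 0.34 without sham array 4, 0.07 without sham array 2 and 0.05 without the 2 dimmest irradiated arrays. The part of blood content in these changes was not tested.

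Interferon-stimulated genes, which cells switch on in defence against viruses, were mostly higher without any single gene passing. Of 45 tested, 40 lay above 0 and the median change was 0.25, with 14 at an unadjusted p under 0.05 in the higher direction (2.49% of all genes) and none in the lower. None passed the adjusted threshold, although Oasl2 did under 2 alternatives, given below. In 7 the groups did not overlap, all with irradiated arrays higher (1.16% of all genes). The mean level of the list was -1.96, -2.14, -1.97 and -1.94 in sham arrays 1 to 4 and -1.36, -1.76, -2.04 and -1.57 in irradiated arrays 1 to 4. Irradiated array 1 was highest, and irradiated array 3 lay among the sham arrays. The median change was 0.39 without irradiated array 3 and 0.13 without irradiated array 1. In wild type 29 of the 45 lay above 0, with a median of 0.07.

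Oasl2, an oligoadenylate synthetase-like protein, came closest: it read -2.22, -2.65, -2.29 and -2.53 in sham and -0.94, -1.97, -1.65 and -1.54 after irradiation (difference 0.90 ± 0.18, limma, adjusted p = 0.119). It passed with normexp correction (limma, adjusted p = 0.0468) and without irradiated array 2. Usp18, which removes ISG15 from proteins and damps interferon signalling, read -4.16, -4.50, -4.14 and -4.73 in sham and -2.69, -3.38, -3.76 and -3.38 after irradiation (difference 1.08 ± 0.23, limma, adjusted p = 0.148). Bst2, the virus tether tetherin, stood at 0.51 ± 0.13 and Ifi44 at 0.65 ± 0.20. Isg15, the ubiquitin-like modifier, read 0.39 on irradiated array 1 and -0.72 on irradiated array 3, against -1.02 to -0.73 in sham. Ifit1, which binds foreign RNA, read -2.39 and -3.56 on the same arrays, against -3.91 to -3.23 in sham. Zbp1, a sensor of left-handed nucleic acid, stood at 0.95 ± 0.24, and Tap1, a peptide transporter of antigen presentation, at 0.57 ± 0.14, neither passing (limma, adjusted p = 0.351 and 0.298). Both were drawn from other lists, which lay on both sides of 0. Of 17 interferon and cGAS sensor genes 7 lay above 0 and 10 below, with a median change of -0.02. Of 20 antigen presentation genes 7 lay above 0 and 13 below, with a median change of -0.04.

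The stretches that hold the core of the interferon-stimulated response element are printed for 3 of these genes. The core is GAAA, any 2 bases and GAAA, searched on both strands, and capitals mark its matches, which may overlap. They are Isg15 at chr4:156200835-156200924 (minus strand), Ifit1 at chr19:34640764-34640853 (plus strand) and Oas1a at chr5:120907526-120907615 (minus strand), all from RefSeq promoters of GRCm38.p6.
Isg15: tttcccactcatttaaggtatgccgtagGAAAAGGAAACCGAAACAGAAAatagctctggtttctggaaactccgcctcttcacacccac
Ifit1: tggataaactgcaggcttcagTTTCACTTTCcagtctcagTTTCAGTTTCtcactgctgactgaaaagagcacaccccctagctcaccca
Oas1a: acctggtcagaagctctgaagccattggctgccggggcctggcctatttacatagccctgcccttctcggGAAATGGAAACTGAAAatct
In Ifit1 the core lies on the other strand and is printed as its complement. The core was found in the 250 bases before the start of 14 of 35 interferon genes with a window. It was found in 3.21% of the genes tested that have a window and in 2.98% of all windows. Oas1a, an oligoadenylate synthetase, read -3.00, -3.17, -2.56 and -2.92 in sham and -1.72, -2.17, -2.64 and -2.11 after irradiation, with irradiated array 3 inside the sham range.

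Inflammatory genes lay on both sides of 0. Of 22 chemokine genes, 1 fell (0.0459% of all genes) and none rose. Ccl24, an eosinophil-attracting chemokine, read -4.30, -4.06, -4.11 and -4.26 in sham and -4.82, -5.35, -4.89 and -4.99 after irradiation, a fall of 0.83 ± 0.13, or 1.78-fold (limma, adjusted p = 0.0233), lost without sham array 2, 3 or 4 or irradiated array 2 or 4, and with quantile normalization, the array median and the deposited scores. With normexp correction Ccl24 stood at -0.20 and was not called. Ccl9 stood at -0.70 ± 0.18, while Ccl4 and Ccl3, which microglia release early in inflammation, stood at 1.61 ± 0.40 and 1.04 ± 0.35. None of these 3 passed (limma, adjusted p = 0.351, 0.351 and 0.769), and Ccl4 was well above background on 2 sham arrays. Of 20 complement genes none was called, 16 lay above 0, and the median change was 0.20. Cfb, factor B of the alternative pathway, stood at 0.99 ± 0.24 and C5ar1, the receptor for C5a, at 0.48 ± 0.16, with groups that did not overlap. The median of the complement list was 0.06 without irradiated array 1.

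None of 25 NF-kB targets and cytokine genes was called, and 10 lay above 0 and 15 below. Their median change was -0.04, and 0.12 with normexp correction. Icam1, an adhesion molecule of activated endothelium, stood at 0.82 ± 0.25, and Lcn2, lipocalin 2, at 1.16 ± 0.42, neither passing (limma, adjusted p = 0.659 and 0.821). None of 20 antigen presentation genes was called. Cd74, the invariant chain of class II, stood at -1.04 ± 0.40 and H2-Ab1, a class II chain, at -1.16 ± 0.51, with irradiated array 2 lowest in both (-4.46 and -3.63). Nlrc5, the activator of class I genes, stood at 0.64 ± 0.27.

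Tmem45a read -3.64, -3.61, -3.62 and -3.86 in sham and -4.20, -4.57, -4.27 and -4.44 after irradiation. Its fall of 0.69 ± 0.11, or 1.61-fold, passed (limma, adjusted p = 0.0233) and was lost without sham array 1, 2 or 3 or irradiated array 2 or 4, and with quantile normalization, the array median and the deposited scores. With normexp correction Tmem45a stood at -0.23 and was not called. It was the 1 called of 22 mural and fibroblast genes (0.12% of all genes were called). Of the 22, 17 lay below 0 with a median of -0.21, -0.09 without irradiated array 2 and -0.32 without irradiated array 1. Col3a1, a fibrillar collagen of fibroblasts, stood at -0.70 ± 0.33. Of 25 endothelial genes none was called: Cldn5, the tight junction protein of the blood-brain barrier, stood at -0.41 ± 0.16 and Ly6a at 0.63 ± 0.20.

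Choroid plexus genes, which enter a cortex sample with tissue of the ventricles, were higher on most irradiated arrays. The mean level of the list was -2.66, -1.97, -2.70 and -2.87 in sham arrays and -1.94, -2.49, -1.80 and -2.03 in irradiated arrays, with a median change of 0.38 (0.58 without sham array 2) and none of 20 called. Otx2, a choroid plexus transcription factor, read -6.17, -4.38, -6.03 and -4.64 in sham and -3.75, -4.21, -3.73 and -3.96 after irradiation. Ttr, transthyretin, overlapped between groups (-2.43 to 1.22 in sham). Cldn2, a claudin of the choroid epithelium, was well above background on 1 of the 8 arrays. No gene was called of 22 excitatory neuron, 22 interneuron and 18 striatal genes, and none of these reached an unadjusted p under 0.05. No gene of 27 reactive astrocyte, 21 astrocyte support and 26 stem cell and neuroblast genes was called. Atp1b2, a sodium pump subunit of astrocytes, stood at 0.26 ± 0.10, Aqp4, the water channel of their endfeet, at -0.33 ± 0.21, and Sox4, a factor of immature neurons and precursors, at -0.44 ± 0.15.

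Among 25 glucocorticoid-induced genes 1 rose (0.0746% of all genes), Cdkn1a, which is also a p53 target. With Cdkn1a, 6 of them had an unadjusted p under 0.05 in the higher direction (2.49% of all genes). The median change of the list was 0.13, and 0.03 without sham array 1. Sult1a1, a phenol sulfotransferase, read -0.04 to 0.17 in sham and 0.58 to 1.0 after irradiation (difference 0.72 ± 0.14, limma, adjusted p = 0.0872). Plin4, a lipid droplet protein, stood at 1.31 ± 0.33 and Hif3a, a hypoxia factor that glucocorticoids induce, at 0.86 ± 0.22. Of 23 immediate early genes of active neurons, 20 lay below 0 with a median of -0.17 (-0.01 with array weights, and nearer 0 without sham array 2 or 4 or irradiated array 3), and none was called or had an unadjusted p under 0.05. In wild type 18 of the same 23 lay above 0. None of 18 clock genes was called, with a median change of 0.10 that turned to -0.009 without sham array 2 and was nearer 0 without sham array 1 or irradiated array 1, 2 or 4.

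No gene of the DNA repair lists was called. None of 21 base excision repair genes reached an unadjusted p under 0.05, and the differences ran from -0.18 (Xrcc1, the scaffold of single-strand break repair) to 0.36 (Ung, the uracil glycosylase). None of 29 break repair genes was called or reached an unadjusted p under 0.05, with a median change of 0.01 (-0.05 with the array median). Of 28 genes of oxidative stress defence none was called: Cat, catalase, stood at -0.46 ± 0.13 and Hmox1, heme oxygenase 1, at 0.54 ± 0.18, the latter with groups that did not overlap. Among 17 clustered histone genes none was called, 13 lay above 0, and the linker histone gene H1f2 stood at 0.68 ± 0.23. In 22 sterol genes Lss, lanosterol synthase, stood at -0.38 ± 0.12 with no call, and its other kept probes at -0.10 and -0.04. None of 15 integrated stress response genes and none of 34 ribosomal protein genes was called. The smallest change that passed was that of Rps27l, 0.59 on the log2 scale, and the median standard error over all genes was 0.17, so 4 mice a group limit what was detectable.

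The response in knockout cortex was set beside that of wild-type littermates in the same fit. In wild type 13 genes were called (0.0746%), 11 higher (0.0631%) and 2 lower (0.0115%), and all 13 were among the 21 of the knockout, in the same direction. All 21 knockout genes had the same direction in wild type. There 1.97% of all genes reached an unadjusted p under 0.05, and 1.97% had groups that did not overlap. No gene of 17436 differed in its response between genotypes at an adjusted p under 0.05 (0%), and 222 (1.27%) reached an unadjusted p under 0.05. A call in knockout and not in wild type is therefore no shown difference between them. Each genotype was on its own slide and scan, so genotype and slide cannot be told apart in levels, while each change was measured within a slide.

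**Figure D4:**
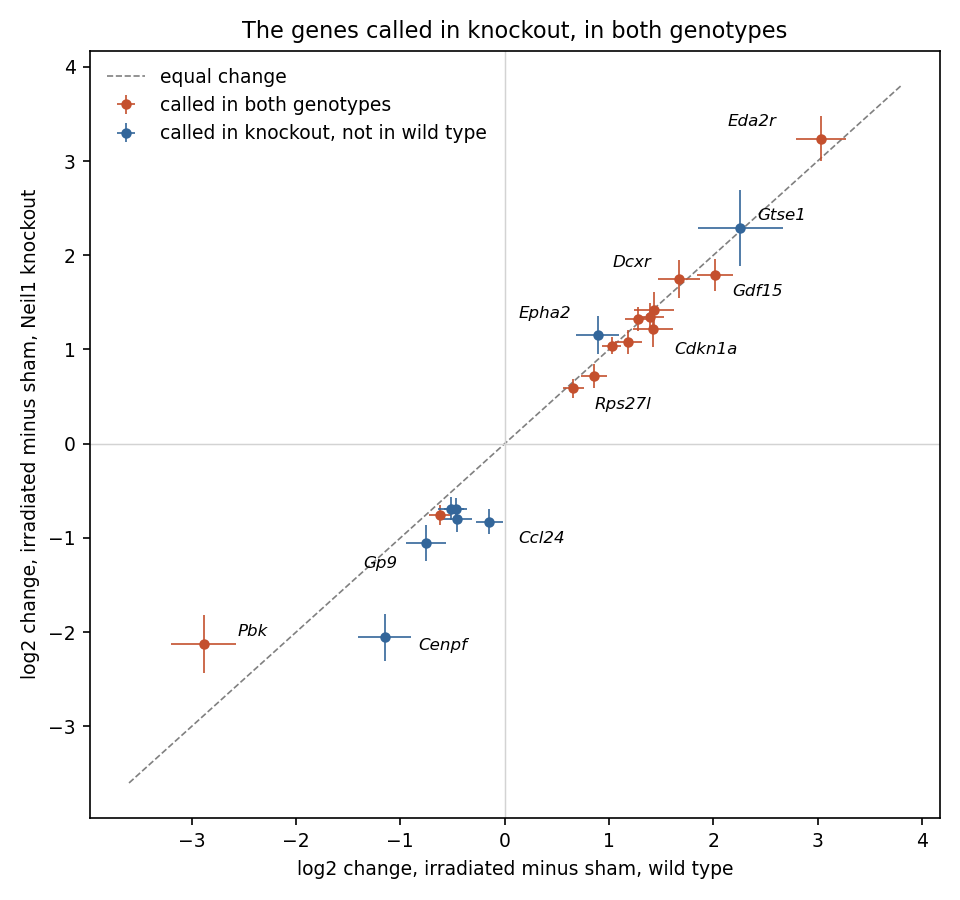
Fitted log2 change after irradiation in wild type (horizontal axis) and in Neil1 knockout (vertical axis) for the 21 genes called in knockout, with standard errors as bars and the line of equal change dashed. Red points were called in both genotypes (13) and blue points in knockout only by the threshold (8). Cenpf and Ccl24 lie farthest below the line (-0.91 and -0.68) and Pbk farthest above it (0.76). No irradiated array was well above background for Pbk in either genotype or for Cenpf in knockout, so their places rest on readings at background.

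Intervals of the difference included 0 for 4 p53 targets taken as examples. Trp53inp1 differed by 0.01 (knockout minus wild type, 95% interval -0.26 to 0.28), Ephx1 by 0.04 (-0.34 to 0.43), Mgmt by -0.04 (-0.47 to 0.39) and Cdkn1a by -0.21 (-0.79 to 0.36). Among the 21 the widest intervals reached 1.23 to each side. The largest gap among called genes by its own p was that of Ccl24, at -0.83 in knockout and -0.15 in wild type, a difference of -0.68 (-1.09 to -0.28, limma, unadjusted p = 0.00253). Cenpf stood at -2.05 and -1.15, a difference of -0.91 (-1.67 to -0.14, limma, unadjusted p = 0.0233), with the knockout value resting on irradiated arrays at background. Neither passed adjustment. Over all genes the smallest p of the difference belonged to Smgc, Tg, Cabp4, Olfr1383, Pik3ap1 and Gm3336, most of them dim. Pik3ap1, a B cell and myeloid adaptor of PI3 kinase, stood at 0.79 ± 0.18 in knockout and -0.25 ± 0.18 in wild type. Smgc, a mucin gene of salivary gland, stood at 0.26 ± 0.12 and -0.46 ± 0.12 (limma, unadjusted p of the difference 0.000611). The brighter probe of Tg and the probe of Cabp4 had no reading well above background in the knockout sham group. The same held for both in the wild-type irradiated group, so their folds are bounds. Tg, thyroglobulin, was at least 1.61-fold higher after irradiation in knockout and at least 1.09-fold lower in wild type, and Cabp4, a calcium-binding protein of photoreceptors, at least 1.25-fold higher and at least 1.28-fold lower, none of them passing adjustment. A second kept Tg probe stood at 0.05 ± 0.49 in knockout, with overlapping groups, and at -0.71 ± 0.49 in wild type. Olfr1383, an olfactory receptor gene, stood at 0.86 ± 0.25 and -0.57 ± 0.25.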

How the data were processed

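RNA of 16 cortices was labelled with Cy3 and hybridised to 1-colour Agilent mouse arrays (labels' protocols). The authors read spot intensity with Agilent Feature Extraction 12.0.3.1, per the file headers, and its processed signal was used. A series table deposited by the authors gives 1 score per array for each of 42859 features. No label or header says how it was made. The sorted scores were the same on every array within 0.01, with mean 0 and a median of -0.08, so they were read as quantile-normalized z-scores, and their scale in log2 is unknown. They served as an alternative.

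Levels are log2 of processed intensity minus the array's 75th percentile. Control spots were left out, outlier spots set to missing, and spots of a probe averaged. Probes well above background on at least 4 of 16 arrays were kept (39589 of 56605). RefSeq accessions stood on 35886 probes, and the RefSeq gene table (GRCm38.p6) named 32994 of those. Ensembl transcript probes (7284) and 16327 others stayed unnamed. A gene was its brightest kept probe, with a value on at least 12 arrays. The model had 1 mean for each of 4 groups over 16 arrays (limma 3.58.1, R 4.3.3), tests were two-sided with Benjamini-Hochberg adjustment, and the call threshold was 0.05. The fit was tested on simulated data. Single values used exact permutation tests over arrays. Where every array of the dimmer group was at background, the fold is a bound.

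The members, the gene lists, the tests and the alternatives were chosen with earlier results of these data known. Named genes were Neil1, genes called in knockout, the next 10 by p, up to 4 members of a list by p, the 6 genes with the smallest p of the difference between genotypes, and called probes without a name; some that this rule selects are not reported here. Outside it, chosen after their values were seen, are Aurkb, Phlda3, Oas1a, Isg15, Ifit1, Ccng1, H2-Ab1, Top2a, Cx3cr1, Tmem119, Mdm2, Mog, Slc17a7, Gad1 and Duoxa1. Alternatives changed the background correction (normexp on the median signals with an offset of 50), scaling, filters, arrays fitted, variance model, block, probe rule and source of the values.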

Additional observations from a re-analysis of the deposited data

Results flagged for a closer look

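Of 274 groups of 4 knockout arrays examined, 10 had 1 array far from the other 3 by Dixon's criterion, which chance meets in about 1 group in 20. In the irradiated group, Cenpf read -8.00 on array 4 and -7.04 to -6.99 on the others, all not well above background. Il7r read -5.26 on irradiated array 2 and -5.79 to -5.71 on the others. The arrest and feedback list had a mean level of 0.69 on irradiated array 3 and 0.83 to 0.84 on the others, and the antigen presentation list -1.45 on irradiated array 2 and -0.92 to -0.89 on the others. In the sham group, Tmem45a read -3.86 on array 4 and -3.64 to -3.61 on the others, and Cabp4 -6.18 on array 4 and -7.25 to -7.20 on the others. Sham array 2 stood apart in Lss (0.24, others -0.20 to -0.17), in Ciita, the activator of class II genes (-6.29, others -7.52 to -7.32), and in the lists of break repair (-1.80, others -1.94 to -1.92) and interferon response (-2.14, others -1.97 to -1.94). Technical and biological sources of these readings were not tested.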

How the results depend on the processing

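Against 21 genes called in knockout, 11 were called with the array median, 6 in the fit of the 8 knockout arrays alone, 13 with a replicate block, 2 with the knockout arrays alone and a replicate block, and 7 without the 2 dimmest irradiated arrays. Leaving out single arrays gave 11 to 22. Other settings gave 14 to 25 genes. Some named genes outside the 21 were called under alternatives. They were 9030619P08Rik under 6, Aen under 4, Tnfrsf17 under 3, and Oasl2, Il7r and Cd79b under 2 each. Aurkb, Ccnb1, Hif3a, Mapkapk3, Pik3ap1, Spc25 and Zbp1 were called under 1 each. Against 18 called probes, 2 were called with the knockout arrays alone, 7 probes were called without the 2 dimmest irradiated arrays, and 11 to 18 without single arrays. The same replicate numbers label different mice and the same column of the slide. Same-number pairs of sham and irradiated knockout arrays correlated in their deviations with r of 0.054 to 0.525, and 2 of 4 numbers correlated best with their own. The numbers were not taken as pairs of mice. The replicate block, which also adjusts for the slide column, is an alternative only, and 11 of its 13 genes were among the 21. No gene differed in its response between genotypes under any alternative run. With normexp correction Tnfrsf17 turned to 0.0441, Aurkb to 0.164 and Ciita to 0.209. Neil1 turned to -0.0384 with quantile normalization, -0.0486 with the array median and -0.0125 with the deposited scores, Gad1 to 0.005 with those scores, and Slc17a7 to -0.00334 with array weights and -0.0149 without the 2 dimmest irradiated arrays. Leaving out single arrays, Neil1 ran from -0.0564 to 0.0861, Slc17a7 from -0.104 to 0.244, Gad1 from -0.140 to 0.0902 and Mog from -0.114 to 0.530. The cause was not tested. The scalings moved the median change of all genes by less than 0.1. The number of arrays and dim signals near background limit the precision.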
